A study of Mus musculus with 6 samples.

Results

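The cells described here are neutrophil-like cells that carried UMIs of S100a8, S100a9 and Ngp among mouse T-cell progenitors re-cultured on OP9-DL1 stromal cells. A UMI is a unique molecular identifier, a tag that counts 1 captured RNA molecule. A cell was taken as a member if its UMIs of S100a8, S100a9 and Ngp summed to at least 2 and its UMIs of the MHC class II genes H2-Aa, H2-Ab1 and H2-Eb1 summed to at most 1. The rule gave 91 members among 60671 kept cells (0.150%), and 90 of the 91 came from the DN1 start. Because the rule used these 6 genes, their own levels are a description and were not tested.

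The study compared the fates of progenitors that can or cannot use the distal enhancer that sets the timing of Bcl11b activation (the timing enhancer). WT mice were Bcl11b YFP/YFP on C57BL/6, and ΔTE mice carried the same 2 YFP-tagged Bcl11b alleles with the timing enhancer deleted from both, so every cell, WT included, held the knock-in reporter. Bone marrow progenitors enriched for CD117 (Kit), from mice of both sexes aged 2 to 4 months and pooled from 6 to 8 animals, were first grown on OP9-DL1, a stromal line that presents the Notch ligand DLL1. Progenitors of the DN1, DN2a and DN2b stages, which lack CD4 and CD8, were then sorted and re-cultured for 4 days. The methods of the study describe sorting with antibodies against CD11b (Itgam) and Gr-1 (Ly6g), among other lineage markers, which are surface proteins of neutrophils. RNA was counted by sci-RNA-seq3, a combinatorial indexing method, and the labels give the molecule as nuclear RNA. Each of the 6 conditions was 1 library from pooled animals, so differences between conditions have no replicate and carry no test. The libraries held 8007395 to 14555100 UMIs over all barcodes, 3401 to 19489 cells were kept per library, and no barcode was shared between any of the 15 pairs of libraries.

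Neutrophils arise in bone marrow from granulocyte-monocyte progenitors through promyelocytes, myelocytes and metamyelocytes. Promyelocytes make the azurophil (primary) granules, with myeloperoxidase and serine proteases, and myelocytes then make the specific (secondary) granules, with lactoferrin and related proteins. S100a8 and S100a9 form calprotectin, the main cytosolic protein of neutrophils, and Ngp, neutrophilic granule protein, belongs to the specific granules. PU.1 and C/EBP factors are the best known regulators of this series, C/EBPε above all for the specific granule genes.

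Promoters are shown for the 3 genes that define the cells, together with Ltf and Elane, a specific and an azurophil granule gene that passed the test below. Each line gives the 250 bases upstream of the RefSeq start (GRCm38.p6), 5′ to 3′ on the strand of the gene. The capitals mark matches to a C/EBP motif (TTGCNNAA, or TTNNGCAA on the other strand) or to a PU.1 motif (GAGGAAGT, or ACTTCCTC on the other strand), and no matches overlapped.
S100a8 (chr3:90668821-90669070, + strand): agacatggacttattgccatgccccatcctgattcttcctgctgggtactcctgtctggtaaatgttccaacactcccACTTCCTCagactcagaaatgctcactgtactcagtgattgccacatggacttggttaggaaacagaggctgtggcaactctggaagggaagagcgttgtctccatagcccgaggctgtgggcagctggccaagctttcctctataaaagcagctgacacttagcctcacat
S100a9 (chr3:90695722-90695971, − strand): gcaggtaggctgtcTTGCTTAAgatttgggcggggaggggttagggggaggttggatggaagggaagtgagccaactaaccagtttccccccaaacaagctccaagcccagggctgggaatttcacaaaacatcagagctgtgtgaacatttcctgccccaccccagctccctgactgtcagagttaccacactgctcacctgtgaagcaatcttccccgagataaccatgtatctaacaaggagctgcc
Ngp (chr9:110419558-110419807, + strand): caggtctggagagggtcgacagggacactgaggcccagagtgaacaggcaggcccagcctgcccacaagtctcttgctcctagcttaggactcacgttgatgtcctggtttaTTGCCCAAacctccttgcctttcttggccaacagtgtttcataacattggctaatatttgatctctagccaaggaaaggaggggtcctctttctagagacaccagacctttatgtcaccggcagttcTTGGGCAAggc
Ltf (chr9:111019042-111019291, + strand): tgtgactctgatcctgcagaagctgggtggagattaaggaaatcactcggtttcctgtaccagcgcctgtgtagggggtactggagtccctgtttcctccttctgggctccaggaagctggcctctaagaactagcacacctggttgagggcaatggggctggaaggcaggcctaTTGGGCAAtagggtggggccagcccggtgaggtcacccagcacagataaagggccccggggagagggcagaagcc
Elane (chr10:79886062-79886311, + strand): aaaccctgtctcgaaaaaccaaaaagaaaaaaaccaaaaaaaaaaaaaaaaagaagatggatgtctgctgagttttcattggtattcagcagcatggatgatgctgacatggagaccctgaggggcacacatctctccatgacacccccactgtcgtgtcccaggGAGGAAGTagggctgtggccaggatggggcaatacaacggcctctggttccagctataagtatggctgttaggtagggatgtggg

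The C/EBP motif was present in 9.56% of 32851 RefSeq promoter windows of this length and the PU.1 motif in 2.44%. Ngp held 2 C/EBP matches, which start 138 and 11 bases before the start, S100a9 held 1 and S100a8 none. Among the 4 specific granule genes that passed the test below, Ltf, Lcn2 and Fcnb held a C/EBP match and Chil3 did not, and none held the PU.1 motif. All 3 azurophil genes that passed it, Mpo, Elane and Prtn3, held the PU.1 motif and none the C/EBP motif. A GATA motif (AGATAA, or TTATCT on the other strand), not marked above, was present in 9.99% of the windows. S100a9, Ltf and Chil3 held it, and none of the other genes of this paragraph did. A match is a string of letters in this window and not a site of binding. In the GENCODE M21 annotation of GRCm38, S100a8 lies on chromosome 3 at 90668978 to 90670035. S100a9 lies on the same chromosome at 90692632 to 90695721 on the opposite strand, and Ngp on chromosome 9 at 110419747 to 110423012. The GENCODE starts of S100a8 and Ngp lie inside the windows shown. The Ngp match 11 bases before the RefSeq start thus falls within the GENCODE gene.

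Neutrophil-like cells were found almost wholly in the DN1 start, and their share was lower in the ΔTE library than in the WT library. They made up 0.595% of WT DN1 cells (65 of 10925, exact 95% interval 0.459 to 0.758%) and 0.243% of ΔTE DN1 cells (25 of 10294, 0.157 to 0.358%). The ratio of ΔTE to WT was -1.29 on the log2 scale (-2.02 to -0.61), a share 2.45-fold lower. Intervals here and below cover counting error only, and the difference between these cultures was not tested for want of a replicate. The cells of a library went through reverse transcription in 3 wells, technical parts of 1 culture. The WT wells held 0.579%, 0.603% and 0.610% and the ΔTE wells 0.215%, 0.236% and 0.283%. Exact 95% intervals of wells overlapped between the libraries, with 0.382 to 0.842% for WT well A03 and 0.129 to 0.536% for ΔTE well A12.

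The count of members depended on how many UMIs were asked for, and more so in WT. The minimum of 2 UMIs was met exactly by 16 WT and 3 ΔTE members, and just outside it stood 152 WT and 56 ΔTE cells with 1 UMI. When at least 5 UMIs were required, 34 WT and 20 ΔTE cells remained and the log2 ratio was -0.68 with an interval that included 0 (-1.55 to 0.16). After each cell was thinned to 300 UMIs, with shallower cells left out, 42 of 9659 WT and 18 of 9284 ΔTE cells met the rule, a log2 ratio of -1.17 (-2.05 to -0.34). The MHC class II limit removed no cell: none of the kept cells with at least 2 UMIs of the 3 marker genes held a UMI of H2-Aa, H2-Ab1 or H2-Eb1.

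Outside the DN1 start, 1 of 39452 cells was a member. It came from the ΔTE DN2a library (1 of 11594) and carried 975 UMIs, with 8 of S100a9, 4 of Ngp and 1 of S100a8. The same cell held 5 UMIs of Abca13, 3 each of Chil3 and Syne1, and 1 each of Lcn2, Lyz2, Padi4 and Cebpe, and no UMI of the T lineage list. WT DN2a gave 0 of 19489 cells, which allows a share of up to 0.0154%, WT DN2b 0 of 4968 (up to 0.0604%) and ΔTE DN2b 0 of 3401 (up to 0.0882%). With 3 cells in place of 0 in the empty libraries, the share in WT DN1 was 38.7-fold that in WT DN2a and 9.85-fold that in WT DN2b. These folds leave out counting error in the DN1 library. In ΔTE, DN1 exceeded DN2a by 4.82 on the log2 scale (2.20 to 10.18), and its share was 2.75-fold that in ΔTE DN2b on the same terms. Single UMIs of the marker genes followed the same libraries: 1.39% and 0.544% of WT and ΔTE DN1 cells held exactly 1, against 0.0205% in WT DN2a, 0.0173% in ΔTE DN2a and none in the DN2b libraries.

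**Figure D1:**
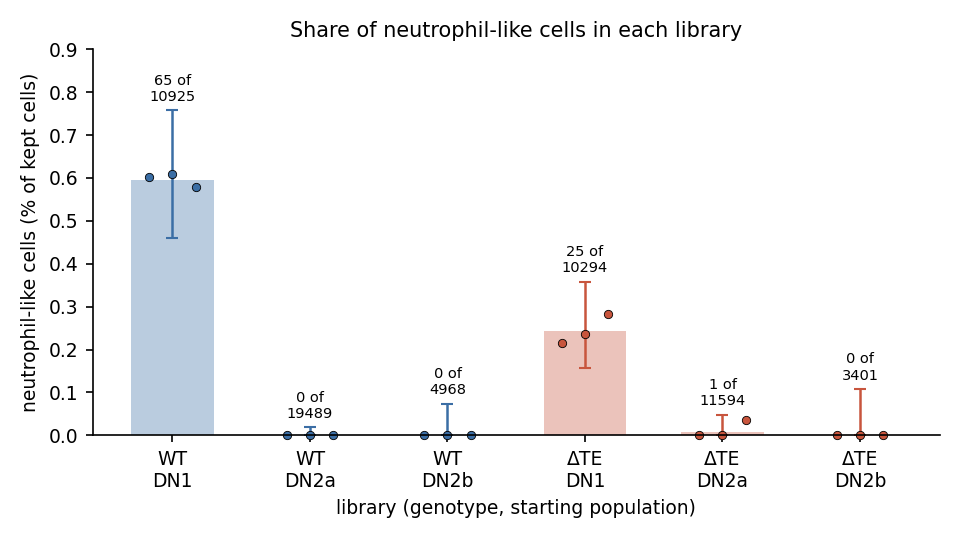
Neutrophil-like cells as a percentage of kept cells in the 6 libraries (bars, with exact 95% intervals for counting error) and in the 3 reverse-transcription wells of each library (points). WT DN1 stood at 0.595% and ΔTE DN1 at 0.243%, and 1 member came from the other 4 libraries.

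Marker UMIs were also counted in cells that should lack these genes, and the source of these UMIs was not tested. In WT DN1, 3 of 119 cells with at least 2 UMIs of the CD3 genes Cd3d, Cd3e and Cd3g held a marker UMI (2.52%, median depth 544 UMIs), and 0 of 119 met the rule. Among 181 WT DN1 stromal cells, defined by at least 3 UMIs of Col1a1, Col1a2, Col3a1 and Sparc, 16 held a marker UMI (8.84%, median depth 693 UMIs). Of these 181, 3 met the rule (1.66%, 0.343 to 4.77%), against 0.595% of all kept WT DN1 cells. In ΔTE DN1, 1 of 31 CD3 cells and 1 of 108 stromal cells held a marker UMI and none met the rule. Over all kept cells of the DN1 start, 1.99% in WT and 0.787% in ΔTE held at least 1 marker UMI. Members were about as deep as other cells, with a median of 494 UMIs against 462 in WT and 527 against 485 in ΔTE.

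The 3 defining genes were unevenly spread over the members. A WT member held 2 to 56 marker UMIs with a median of 5, and a ΔTE member 2 to 24 with a median of 9. S100a9 was seen in 59 of 65 WT members (90.8%) and 24 of 25 ΔTE members (96.0%), and S100a8 in 47 (72.3%) and 19 (76.0%). Ngp was seen in 24 of 65 WT members (36.9%, 25.3 to 49.8%) and in 20 of 25 ΔTE members (80.0%, 59.3 to 93.2%). These are values of the rule's own genes in 1 library each. Of all marker UMIs in members, Ngp gave 18.1% in WT and 33.2% in ΔTE. All 3 genes were present together in 16 WT and 14 ΔTE members.

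**Figure D2:**
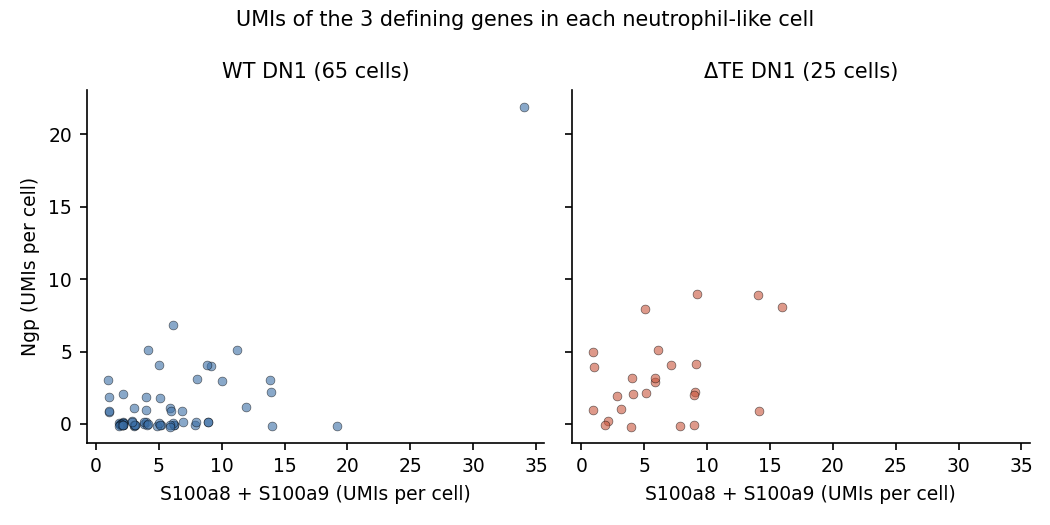
UMIs of S100a8 plus S100a9 (x axis) and of Ngp (y axis) in each neutrophil-like cell of the WT DN1 and ΔTE DN1 libraries, with each point moved by up to 0.2 UMIs so that cells do not hide each other. In WT, 41 of 65 cells lie at 0 Ngp UMIs, and in ΔTE 5 of 25; 1 WT cell stands apart with 22 Ngp UMIs.

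To ask which other genes marked the members, UMIs were summed over members and over all other kept cells of each DN1 library, and the sums were compared with edgeR's quasi-likelihood test with the library as a block, leaving out the 6 genes of the rule. The members held 37616 UMIs in WT and 16811 in ΔTE, and the other cells 5956846 and 5881819. At an adjusted p under 0.05 and over 2-fold, 63 of 13593 genes (0.463%) were higher in members and 68 (0.500%) lower. Only these 2 libraries had the 20 members needed, which leaves 1 residual degree of freedom, so p-values rest largely on the spread shared over genes. The balance of directions depended on the scaling: with library size only, 89 genes were higher and 23 lower, where the 89 included all of the 63 and the 23 were all among the 68. Folds below are ratios of CPM (a gene's UMIs scaled to 1000000 UMIs of its library and class) pooled over both libraries, and adjusted p-values are those of edgeR.

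Specific granule genes gave 4 higher calls in members. Of 18 genes of the specific and gelatinase granules, 14 had a UMI in members and 11 could be tested, and 4 were higher (Ltf, Chil3, Lcn2 and Fcnb) and none lower. The median log2 difference of the 11 was 3.10, against -1.14 over all genes tested. Ltf, lactoferrin, stood at 691 CPM (WT) and 1071 CPM (ΔTE) in members, and at 1.51 and 0.680 CPM in the other cells of the same libraries. Its pooled level was 736-fold that of other cells (adjusted p = 5.20e-25), and it was seen in 14 WT and 10 ΔTE members. Chil3, a chitinase-like protein of these granules, was at 665 and 1011 CPM in members against 1.01 and 0.340 CPM (1142-fold, adjusted p = 1.19e-24). The levels of both genes were high in the members of either library and near 0 in all other cells. Lcn2, the siderophore-binding lipocalin, was at 319 and 773 CPM against 1.34 and 0.850 CPM (418-fold, adjusted p = 9.02e-13). Fcnb, ficolin B, was at 292 and 238 CPM against 1.51 and 0.340 CPM (297-fold, adjusted p = 1.11e-06).

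Of the 18 genes of this list, 4 had no UMI in members. Of all genes tested 39.5% had none, a share that leaves out genes too rare to test, which the list includes. They were Mmp8, neutrophil collagenase, Mmp9, gelatinase B, Mmp25 and Orm1. Anxa1 (10 UMIs), Tcn2 (8), Pglyrp1 (7) and Hp (6) were detected in DN1 members and not called. Camp, the cathelicidin precursor, gave 1 UMI in WT and 3 in ΔTE members and 3 in all other cells, too few for the test. Cyba, the p22phox subunit that many leukocytes share, was at 319 and 297 CPM in members and 171 and 172 CPM in other cells (adjusted p = 0.973).

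Azurophil granule genes gave 3 higher calls and 1 lower. Of 12 primary granule genes, all measured and tested, Mpo, Elane and Prtn3 were higher and Calr lower. Their median log2 difference was -0.09 against -1.14 over all genes. Mpo, myeloperoxidase, was at 1196 CPM (WT) and 476 CPM (ΔTE) in members, against 154 and 96.2 CPM in other cells (7.76-fold, adjusted p = 4.94e-08). Prtn3, proteinase 3, was at 399 and 238 CPM against 30.4 and 27.2 CPM (12.1-fold, adjusted p = 5.41e-04). Elane, neutrophil elastase, was at 479 CPM in WT members, with 18 UMIs over 12 cells, and had no UMI in ΔTE members, against 6.38 and 3.06 CPM in other cells (69.9-fold, adjusted p = 1.03e-05). All Elane UMIs of DN1 members were in WT cells. Calr, calreticulin, which is made in most cells, was at 638 and 595 CPM in members and 1085 and 1118 CPM in others (adjusted p = 0.00522), and its call was lost with library size only (adjusted p = 0.229) and in DESeq2 (0.107). Serpinb1a, Igfbp4, Cst7, Ms4a3, Nkg7, Ctsc and Ctsg did not pass, and Ctsg, cathepsin G, gave 2 UMIs in each genotype's members. With members of at least 5 marker UMIs, Mpo (adjusted p = 0.0718), Elane (0.0659) and Prtn3 (0.302) no longer passed.

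Genes of the phagocyte oxidase and of myeloid signalling formed the list with most calls. Of 18 genes, all detected in members, 6 were higher and none lower, with a median log2 difference of 1.90. Cybb, the gp91phox subunit of the oxidase, was at 585 and 1011 CPM in WT and ΔTE members against 18.3 and 18 CPM (39.5-fold, adjusted p = 1.15e-15). Padi4, the histone-citrullinating enzyme of neutrophil extracellular traps, was at 213 and 297 CPM against 3.02 and 2.72 CPM (83.2-fold, adjusted p = 2.00e-04). The Src-family kinase Fgr (15.9-fold), the oxidase subunit Ncf1 (6.60-fold), the integrin Itgam (29.0-fold) and the kinase Lyn (3.67-fold) also passed, at adjusted p of 8.41e-04, 0.00472, 0.0315 and 0.00955. With members of at least 5 marker UMIs, Ncf1 (adjusted p = 0.0737), Lyn (0.193) and Itgam (0.276) lost the call. Itgam encodes CD11b, a target of the lineage antibodies, and gave 6 UMIs in WT and 4 in ΔTE members. Its call was lost without members that held a stromal UMI (adjusted p = 0.127). Coro1a, Fcer1g, Rac2 and Tyrobp, which lymphoid progenitors also use, were at 1.01- to 1.81-fold with adjusted p of 0.973 to 0.975.

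Genes of mature neutrophils gave 2 higher calls and 1 lower. Of 34 genes, 33 were in the matrices, 23 had a UMI in members and 10 had none. Over all 13593 genes tested, 5366 (39.5%) had none, a share that leaves out genes too rare to test, which the list counts include. Of the 22 that could be tested, 2 were higher (Gda and Csf3r) and 1 lower (Ifitm1). Their median log2 difference was 3.36 against -1.14 over all genes. At an unadjusted p under 0.05 in edgeR, 8 were higher and 3 lower, and DESeq2 called 10 higher and 0 lower. Csf3r, the receptor of granulocyte colony-stimulating factor, was at 239 and 178 CPM against 7.22 and 5.27 CPM (35.3-fold, adjusted p = 0.00543), a call that was lost with members of at least 5 marker UMIs (0.509). Gda, guanine deaminase, was at 585 and 297 CPM against 10.2 and 6.80 CPM (58.1-fold, adjusted p = 2.60e-09). Retnlg, Il1b, Fpr1, Cxcl2, Clec4e and Asprv1, which circulating neutrophils express, had no UMI in members. Ly6g, the Gr-1 target, gave 1 UMI in 1 member. Stfa2l1, a stefin of a cluster of near-identical copies whose reads may be shared, gave 12 UMIs in WT and 3 in ΔTE members. Other DN1 cells had none, and 3 UMIs over those of both libraries in place of 0 would give a 1088-fold difference. Il1r2, the decoy interleukin-1 receptor, missed the threshold (58.6-fold, adjusted p = 0.0506), as did Msrb1, Pilra and Mxd1. Ifitm1, an interferon-induced membrane protein, was lower, at 79.8 and 119 CPM against 406 and 475 CPM (adjusted p = 2.05e-04; 0.0687 in DESeq2).

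Transcription factors of the granulocyte series gave no call. In edgeR's test 0 of 11 tested genes passed, with 0 higher and 1 lower at an unadjusted p under 0.05, and DESeq2 called 1 higher. Etv6 (1542 CPM in WT and 773 CPM in ΔTE members) and Runx1 (1143 and 1606 CPM), broadly used in blood progenitors, were at 0.941- and 1.03-fold of other cells. Spi1, which encodes PU.1, gave 3 and 2 UMIs in members. Cebpe, the factor of the specific granule stage, gave 2 UMIs in WT and 1 in ΔTE members and 1 UMI in all other DN1 cells, and Cebpa gave none in members.

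Outside the lists, genes of several functions were higher in members. Syne1, the nuclear envelope protein nesprin-1, was at 1914 CPM (WT) and 2379 CPM (ΔTE) in members against 34.2 and 29.6 CPM in other cells (64.4-fold, adjusted p = 1.45e-57), and 51 of the 90 DN1 members held it. Dach1, a transcriptional cofactor known from myeloid progenitors, was at 1382 and 773 CPM against 14.3 and 7.82 CPM (108-fold, adjusted p = 2.97e-36). Abca13, a large ABC transporter, was at 904 and 476 CPM against 7.55 and 2.72 CPM (149.8-fold, adjusted p = 4.58e-19). Sgms2, a sphingomyelin synthase, had the highest ratio of these at 161-fold (532 and 654 CPM, adjusted p = 1.42e-13). Fgd4, an exchange factor for Cdc42, was at 74.1-fold (851 and 892 CPM, adjusted p = 8.87e-22). The adhesion molecule Ceacam1 (51.9-fold), the urokinase receptor Plaur (38.7-fold), the kinase Prkcb (25.0-fold) and Tbc1d8 (23.9-fold) followed. Each of these genes was higher in the members of both libraries, which their selection required.

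**Figure D3:**
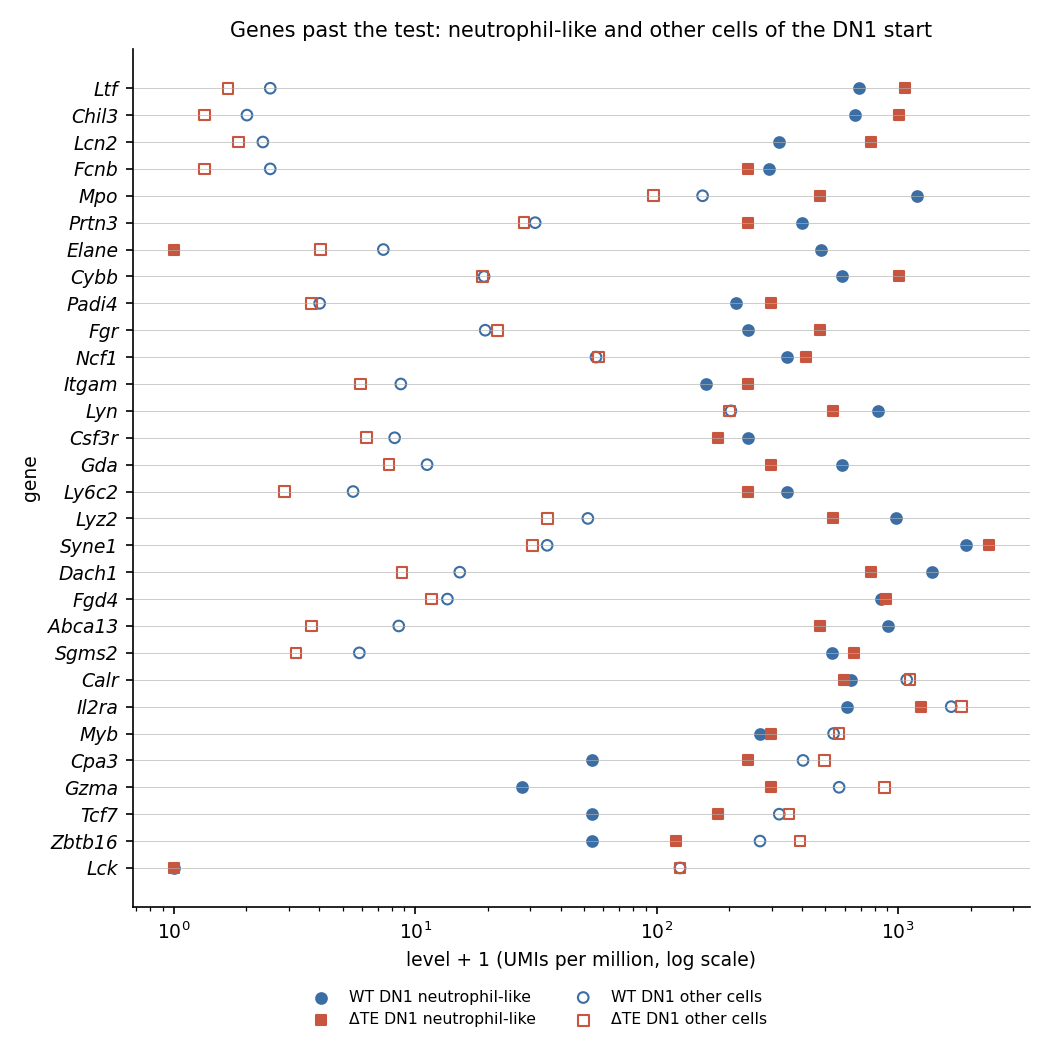
Levels plus 1 in CPM (log axis) of 30 genes past the test in neutrophil-like cells (filled) and in all other cells (open) of the WT DN1 library (circles) and the ΔTE DN1 library (squares). From Ltf to Sgms2 the filled points lie to the right of the open ones, except Elane in ΔTE, which had no UMI in members, and from Calr to Lck they lie to the left.

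Monocyte genes gave 2 higher calls and 0 lower. Of 20 genes, 12 had a UMI in members and 8 had none, where 39.5% of all genes tested had none. Of the 19 tested, 2 were higher. The list summed to 2020.4 CPM in WT and 1011 CPM in ΔTE members, against 366 and 359.6 CPM in other cells. Lyz2, lysozyme M, which neutrophils and monocytes share, was at 984 and 535 CPM against 50.9 and 34.3 CPM (19.8-fold, adjusted p = 1.52e-15). Ly6c2, which is bound by the Gr-1 antibody as well, was at 346 and 238 CPM against 4.53 and 1.87 CPM (97.3-fold, adjusted p = 5.89e-06). Cd68, Cd14, Klf4, Mrc1 and C1qa, genes of monocytes and macrophages, had no UMI in members.

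Some lymphoid and progenitor genes were lower in members. Of 13 T lineage genes, 8 had no UMI in members, among them Cd3e, Cd3d, Ptcra, Lef1 and Rag1, and 2 were lower. Tcf7, which encodes the T-cell factor TCF-1, was at 53.2 and 178 CPM in WT and ΔTE members against 321 and 353 CPM (adjusted p = 0.00996). Lck had no UMI in members and 124 CPM in the other cells of each library (adjusted p = 0.0480). Gzma, granzyme A of NK cells and innate lymphoid cells, was at 26.6 and 297 CPM against 569 and 878 CPM (adjusted p = 6.99e-08), and Zbtb16, which encodes PLZF, at 53.2 and 119 CPM against 267 and 392 CPM (adjusted p = 0.00594). They were the 2 lower genes among 16 tested of that list. Il2ra, which encodes CD25 and marks the passage from DN1 to DN2, was at 611 and 1249 CPM against 1659 and 1826 CPM (adjusted p = 2.74e-05), so its level in members was reduced but not near 0. Cpa3, a mast cell protease also made by progenitors (adjusted p = 6.54e-04), and Myb, a factor of immature blood cells (adjusted p = 0.0327), were lower as well. With library size only, Tcf7 (adjusted p = 0.125), Lck (0.178), Zbtb16 (0.0848) and Myb (0.480) lost their calls. In DESeq2 these 4 and Cpa3 (adjusted p = 0.0925) lost them, at 0.158 to 0.223 for the 4. With at least 5 marker UMIs, Tcf7 (0.161) and Lck (0.505) lost theirs.

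Bcl11b itself, the gene whose enhancer was deleted, gave 9 UMIs in 3 WT members, 6 of them in 1 cell, and none in ΔTE members. In the other DN1 cells it stood at 235 CPM (WT) and 89.6 CPM (ΔTE). Outside the lists, the 5 lowest ratios were those of Plxdc2 (7.43-fold lower), the desaturase Scd2 (5.23-fold), the factor Runx3 (4.56-fold), the peptidase Dpp4 (3.98-fold) and the surface receptor Cd48 (3.74-fold), with adjusted p of 7.81e-07 to 0.00135. In DESeq2, Runx3 (adjusted p = 0.0744), Dpp4 (0.447) and Cd48 (0.120) lost the call. Most genes of mast cells and basophils (10 of 12), eosinophils (8 of 9) and red cells and megakaryocytes (8 of 9) had no UMI in members. Only 6, 2 and 5 genes of these lists could be tested. Of all 13593 genes tested, 5366 (39.5%) had no UMI in members, a share that leaves out genes too rare to test. The eosinophil list summed to 26.6 CPM in WT and 59.5 CPM in ΔTE members and to 24.5 and 26.7 CPM in other cells, so it was sparse everywhere.

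Proliferation genes gave no call. All 20 were detected in members, and 0 passed edgeR's test, with 0 higher and 6 lower at an unadjusted p under 0.05 and none called by DESeq2. Their summed level was 3243 CPM in WT and 3867 CPM in ΔTE members, against 3849 and 4031 CPM in other cells. Mki67 was at 771 and 476 CPM in members and 511 and 545 CPM in others (adjusted p = 0.973), and Top2a at 399 and 654 CPM against 698 and 776 CPM (adjusted p = 0.141).

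Stromal RNA was present in a few members. The 12 stroma genes summed to 1542 CPM in WT members (1171 to 1993) and 498 CPM in other WT cells, and to 416 CPM in ΔTE members (167 to 858) and 277 CPM in other ΔTE cells. A single WT member with 2 marker UMIs held 37 of the 58 stroma UMIs of the WT members, and without it their level was 584 CPM (362 to 893). In the list, 4 of 12 genes had no UMI in members, and 0 of 11 tested passed edgeR's test (1 higher at an unadjusted p under 0.05, none by DESeq2). The stroma list stood at 4167 CPM in the 19 DN1 members with 2 marker UMIs, at 1615 CPM without that cell, and at 104 to 305 CPM in members with more. A UMI of Col1a1, Col1a2, Col3a1 or Sparc was held by 6 WT and 3 ΔTE members. Without these 9, the share was 0.540% in WT and 0.214% in ΔTE, and 64 genes were higher and 86 lower. The part of stromal RNA in the remaining differences was not tested.

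The granule genes were summed by the number of marker UMIs in the cell, in each library on its own. The bins count the rule's own genes, and Ngp is itself a specific granule gene, so these are values without a test. The 5 specific granule genes Ltf, Camp, Lcn2, Chil3 and Fcnb stood at 5.16 CPM in WT cells with no marker UMI and 48.7 CPM in cells with 1. In WT members they stood at 347 CPM with 2 marker UMIs, 1403 CPM with 3 to 4, 2514 CPM with 5 to 9 and 4757 CPM with 10 or more. In ΔTE they went from 2.07 CPM with no marker UMI to 2222 CPM with 5 to 9 and 5712 CPM with 10 or more, and the 3 ΔTE members with 2 marker UMIs had none.

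The 5 azurophil genes Mpo, Elane, Prtn3, Ctsg and Ms4a3 had no such order among the members. In WT they stood at 229 CPM in cells with no marker UMI, at 1820.4 CPM (1127 to 2783) with 2, 3316 CPM (2166 to 4859) with 3 to 4, 1676 CPM (1024 to 2589) with 5 to 9 and 2695 CPM (1570.2 to 4316) with 10 or more. In ΔTE they stood at 165 CPM with no marker UMI, 1269.8 CPM (548 to 2502) in the 10 members with 5 to 9 and 586 CPM (159.6 to 1499.9) in the 10 with 10 or more. The intervals of these member bins overlapped within each library. The T lineage list stood at 1053 CPM in WT cells with no marker UMI, 780.2 CPM with 2, 255 CPM with 3 to 4, 83.8 CPM with 5 to 9 and 0 with 10 or more, and at 476 and 586 CPM in the last 2 bins of ΔTE, from 3 and 4 UMIs.

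**Figure D4:**
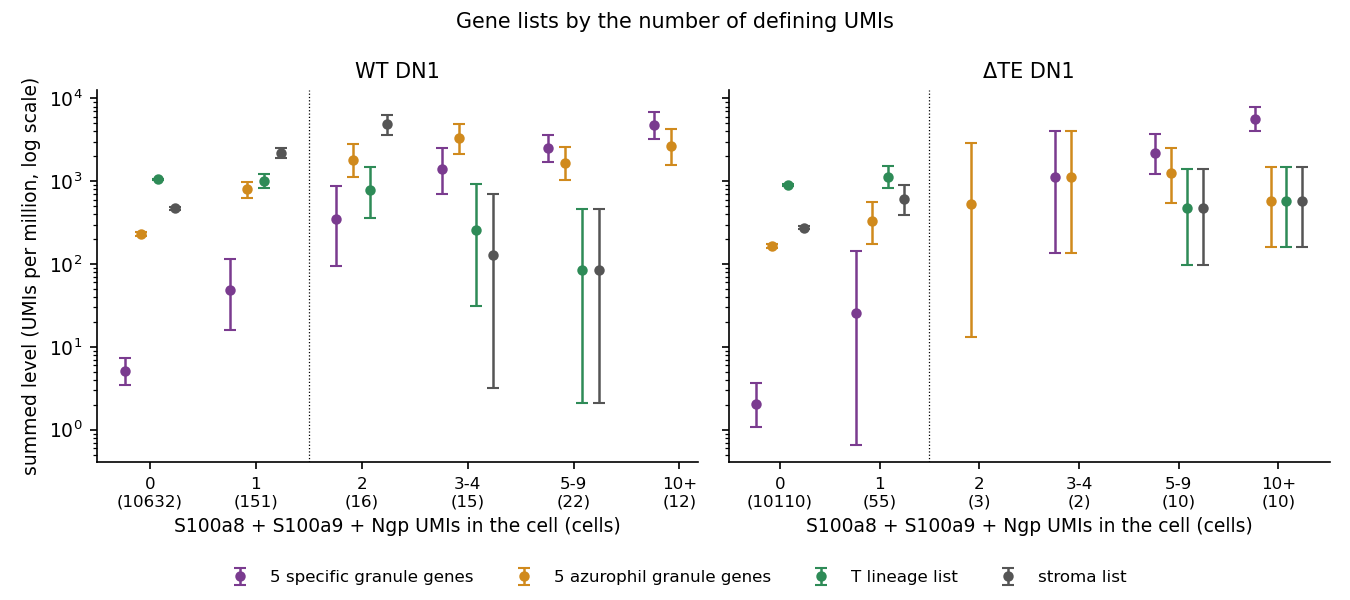
Summed level (CPM, log axis, with 95% Poisson intervals) of 4 gene lists in WT DN1 (left) and ΔTE DN1 cells (right), by the number of S100a8, S100a9 and Ngp UMIs in the cell, with the number of cells in brackets; members lie to the right of the dotted line, and lists with no UMI in a bin are not drawn. The specific granule genes go from 5.16 to 4757 CPM in WT and from 2.07 to 5712 CPM in ΔTE, while the intervals of the azurophil genes overlap between the member bins of a library. The bins use the rule's own genes, so these are values without a test.

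Members were then divided by Ngp. In 24 WT members with Ngp, the 5 specific granule genes summed to 3312 CPM (2425 to 4417), against 1222 CPM (819 to 1755) in the 41 without. The 5 azurophil genes were at 1439.9 CPM (879.5 to 2224) with Ngp and 2697 CPM (2077 to 3445) without. In ΔTE the 20 cells with Ngp had 4042 CPM (3009.7 to 5315) of specific and 476 CPM (175 to 1035) of azurophil genes, and the 5 without it 954 CPM (259.9 to 2442) and 2146 CPM (981 to 4074). One cell held all 4 specific UMIs and 7 of the 9 azurophil UMIs of these 5, and without it they stood at 0 and 604 CPM (73.2 to 2182). Over both libraries, 34 members held specific but no azurophil UMIs, 19 azurophil but no specific UMIs, 13 both and 24 neither. UMIs of the 4 genes Col1a1, Col1a2, Col3a1 and Sparc stood at 1656 CPM in WT members with Ngp and 421 CPM without, but 22 of the 23 in the members with Ngp lay in 1 cell, without which the level was 81.9 CPM (2.07 to 456). Ngp is one of the genes of the rule, so these are values without a test.

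**Figure D5:**
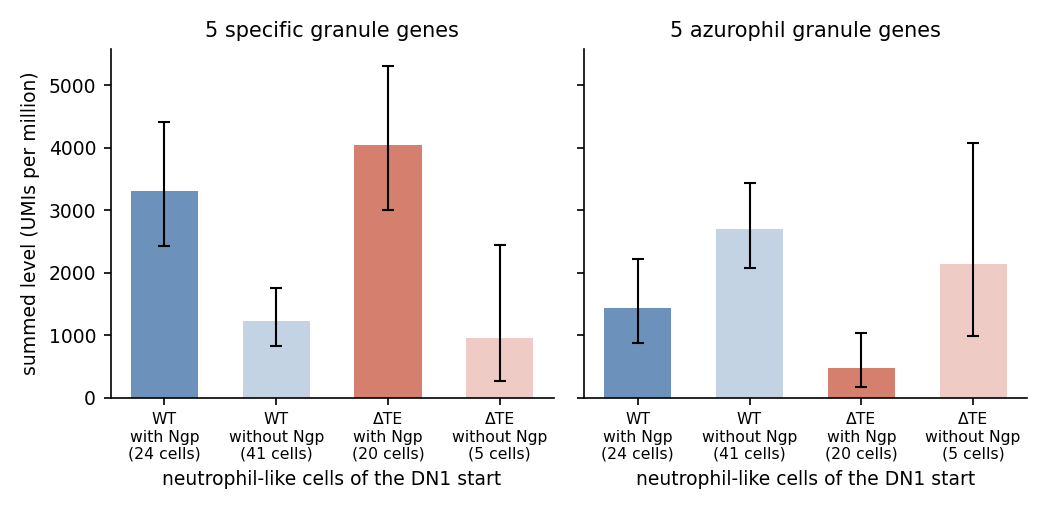
Summed level in CPM of 5 specific granule genes (left) and 5 azurophil granule genes (right) in DN1 members with and without an Ngp UMI, for WT and ΔTE, with 95% Poisson intervals for counting error. In WT the specific granule genes stand at 3312 CPM with and 1222 CPM without Ngp and the azurophil genes at 1439.9 and 2697 CPM; the ΔTE bars without Ngp rest on 5 cells, of which 1 holds most of the UMIs, and the azurophil intervals overlap in both genotypes.

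Between the members of the genotypes, ratios of ΔTE to WT follow as values of 1 library each. Ngp was at 4639.8 CPM in ΔTE and 2153 CPM in WT members, a log2 ratio of 1.11 (0.64 to 1.57), while S100a9 was at 6603 and 5769 CPM (0.19, -0.15 to 0.53) and S100a8 at 2736 and 3988 CPM (-0.54, -1.05 to -0.06). Among specific granule genes, the log2 ratio was 0.63 for Ltf (-0.32 to 1.55), 0.61 for Chil3 (-0.38 to 1.55), 1.28 for Lcn2 (0.03 to 2.54) and -0.30 for Fcnb (-2.40 to 1.46). Among azurophil genes the ratio was -1.33 for Mpo (-2.63 to -0.23), -0.74 for Prtn3 (-2.79 to 0.91), -0.84 for Ms4a3 (-6.46 to 2.50) and 1.16 for Ctsg (-2.62 to 4.95), the last from 2 UMIs in each genotype. Elane, with 0 UMIs against 18, was at least 2.68-fold lower in ΔTE against 3 UMIs in its members. Chil3, Lcn2, Fcnb, Prtn3, Ms4a3, Ctsg and Elane were added to this set after their values were seen.

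Of 64 genes with at least 40 UMIs in these members, whose median log2 ratio was -0.09, the highest ratios were those of Baz2b, a bromodomain protein (1.35, 0.45 to 2.27), Ngp, Il2ra (1.03, 0.10 to 1.95) and Ltf. The lowest were those of Mpo, the flippase Atp8a1 (-1.16, -2.47 to -0.05), the ceramide synthase Cers6 (-1.08, -2.50 to 0.13) and Etv6 (-1.0, -1.99 to -0.11). Lyz2 stood at -0.88 (-2.11 to 0.20) and Runx1 at 0.49 (-0.26 to 1.22). For Il2ra, 1 member held 8 of the 21 UMIs in ΔTE, and 1 held 5 of the 23 in WT.

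The members were also compared with MHC class II cells, the class that the rule sets them apart from, defined by at least 2 UMIs of H2-Aa, H2-Ab1 and H2-Eb1 and at most 1 of the 3 marker genes. There were 77 of them in WT DN1 and 104 in ΔTE DN1, beside 65 and 25 neutrophil-like cells. In the same test, 18 of 13593 genes (0.132%) were higher in the neutrophil-like cells and 49 (0.360%) lower. With library size only, these counts were 55 and 67. The granule genes Ltf, Chil3, Lcn2, Fcnb, Mpo and Prtn3 passed, none of which had a UMI in MHC class II cells. Against 3 UMIs over those cells of both libraries, Mpo was at least 32.2-fold, Ltf at least 26.7-fold, Chil3 at least 25.5-fold, Lcn2 at least 15.2-fold, Prtn3 at least 11.5-fold and Fcnb at least 9.11-fold higher in the neutrophil-like cells (adjusted p of 1.08e-09 for Ltf to 0.0378 for Fcnb). Dach1 (39.5-fold), Fgd4 (28.5-fold), Sgms2 (18.8-fold), Gda (16.4-fold) and Ly6c2 (10.3-fold) passed as well, with folds on the same terms. Syne1 was at 2058 CPM against 30.3 CPM (adjusted p = 2.20e-16). In DESeq2 5 genes were higher and 9 lower, and of the genes named in this comparison Syne1, Fgd4, Sgms2, Pde4d, Lrmda, Ctnnd2, Cd7 and Cst3 passed there. The 6 granule genes, Dach1, Gda and Ly6c2 did not (adjusted p = 1.000 for each), nor did Prtn3 in edgeR with at least 5 marker UMIs (0.135).

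The oxidase and signalling genes gave no higher call against these cells. In edgeR 0 of 18 were higher (2 higher and 4 lower at an unadjusted p under 0.05, none by DESeq2, and 2 higher with library size only), and Tyrobp (239 and 178 CPM against 674 and 897 CPM, adjusted p = 0.0300) and Coro1a (452 and 178 CPM against 1099 and 1218 CPM, adjusted p = 0.00810) were lower. Spi1 (adjusted p = 0.0303) and Irf8, the factor of monocytes and dendritic cells (adjusted p = 0.0378), were lower too, Irf8 at 0 and 59.5 CPM against 225 and 423 CPM. The cystatin Cst3 (186 and 178 CPM against 3123 and 3316 CPM, adjusted p = 5.88e-14), Ciita and Cd74 were lower in the antigen presentation list, and Ciita and Cd74, which act with the genes that chose the MHC class II cells, had no UMI in neutrophil-like cells. Among monocyte genes, Tgfbi (adjusted p = 1.20e-04), Cd300a (0.00273) and Ctss (0.00373) were lower. S100a4 (adjusted p = 0.0364) and S100a11 (0.0303), other members of the S100 family, were lower as well. Of the genes in this paragraph, Cst3 alone passed in DESeq2.

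Other genes outside the lists divided these classes. Plaur, the methionine sulfoxide reductase Msra, the phosphodiesterase Pde4d and Lrmda were higher in neutrophil-like cells at adjusted p of 1.83e-04 for Msra, 3.29e-08 for Pde4d, 4.09e-04 for Lrmda and 0.00606 for Plaur. Pde4d was at 3562 and 3093 CPM against 375 and 389 CPM, while the other DN1 cells as a whole did not differ from the members in it past the threshold (adjusted p = 0.973). Abca13 also passed (772 against 10.1 CPM, adjusted p = 1.67e-06). Ctnnd2 had no UMI in neutrophil-like cells, at least 12.8-fold lower against 3 UMIs over them, and Cd7, Fgl2, Rgs2 and Tgm2 were lower at adjusted p of 2.91e-09 for Cd7 to 0.00333 for Rgs2. Abca13 (adjusted p = 0.132), Msra (0.221), Plaur, Fgl2, Rgs2 and Tgm2 (1.000 each) lost the call in DESeq2.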

How the data were processed

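Counts of UMIs per gene and barcode, deposited by the authors without normalization or filter, were used for all 6 libraries. The labels' processing notes name genome build mm9. The aligner and counter are not given in the sources used here. Barcodes under 200 genes, over 2000 UMIs or over 30% mitochondrial UMIs were left out, after the methods of the study, and no doublet caller was run. Members and gene lists were chosen with earlier results of these data known.

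UMIs were summed per library and class and fitted in edgeR 4.0.16 (R 4.3.3) by quasi-likelihood, with TMM scaling, the library as a block, genes with a UMI in at least 15 kept cells and Benjamini-Hochberg adjustment. DESeq2 1.42.0 was an alternative. The test was also run on counts simulated with counting error only, and the outcome is not reported here. Shares have exact Clopper-Pearson intervals, CPM exact Poisson intervals, and ratios exact conditional intervals (scipy 1.17.1, numpy 2.4.6, pandas 2.3.3, Python 3.11.15), at 95%. Limits of empty libraries are 3 counts. Figures used matplotlib 3.10.9.

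Named genes were, per list, those past the test and up to 6 with most UMIs in members. Outside lists, the 10 highest and 5 lowest ratios past the test with at least 20 UMIs, observed or, for lower genes, expected in members, and the same direction in both libraries were taken. Between genotypes, the rule's marker genes, 6 list genes with most UMIs and the 4 highest and lowest ratios were taken. Some genes that this rule names are not reported here. Genes named for having no UMI were chosen after their values were seen. Of 28048 gene identifiers, 27924 matched GENCODE M21 on GRCm38, used for positions only. Promoters came from RefSeq on GRCm38.p6. Median depth of kept cells was 386 to 485 UMIs.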

Additional observations from a re-analysis of the deposited data

Results flagged for a closer look

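Barcodes that the filters removed also carried the marker genes. In the WT DN1 library, 50 removed barcodes with at least 200 genes met the rule for the 6 genes, of which 49 had over 30% mitochondrial UMIs and 22 over 2000 UMIs. In the ΔTE DN1 library 9 did, of which 7 had over 30% mitochondrial UMIs and 3 over 2000 UMIs. No removed barcode of the other 4 libraries met it. These barcodes held 46, 101 and 44 UMIs of S100a8, S100a9 and Ngp in WT and 7, 18 and 2 in ΔTE. Their 5 specific granule genes summed to 169 CPM in WT and 62.5 CPM in ΔTE, and the 4 stromal genes Col1a1, Col1a2, Col3a1 and Sparc to 3854 and 2062 CPM. With neither limit, 115 of 17365 WT and 34 of 15082 ΔTE cells were members.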

How the results depend on the processing

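The share of members kept its order, ΔTE below WT in the DN1 start and DN1 above DN2a in ΔTE, under all 9 planned and 2 added settings for cells. Without each well in turn, the log2 ratio of ΔTE to WT ranged from -1.40 to -1.20. That of DN1 to DN2a in ΔTE ranged from 4.02 to 4.90 where it had a value. Without ΔTE DN2a well B03, which held the only DN2a member, the ratio was not defined. At least 5 marker UMIs gave the smallest difference between genotypes (-0.68, -1.55 to 0.16), and neither upper limit on UMIs nor on mitochondrial UMIs the largest (-1.55, -2.15 to -0.99). The counts of genes depended on the scaling and the tool, and the cause was not tested. Against other cells, the 63 genes higher became 35 with at least 5 marker UMIs (fewer members) and 170 in DESeq2, and the 68 lower became 29 with DESeq2 size factors in edgeR, 23 with library size only and 17 in DESeq2. The share of calls that were higher was 48.1% in the main fit, 70.1% with DESeq2 size factors, 79.5% with library size only and 90.9% in DESeq2, and the median log2 over all genes moved from -1.14 to -0.92, -0.72 and 0.14. Of the 170 genes in DESeq2, 62 were among the 63. Against MHC class II cells, the 18 genes higher became 5 in DESeq2, 29 with its size factors, 46 with filterByExpr (653 genes tested), 37 without the library in the fit and 55 with library size only, and the 49 lower became 9 in DESeq2 and 78 without the library in the fit. Of 780 values for 78 tests of named and list genes under the alternatives, none changed direction and 71 lost the call. Of these 71, 38 were in DESeq2. The setting with no limit on MHC class II UMIs, counted here and for the shares, could not differ, since the limit removed no cell. Leaving out a library with a test was not run, since 1 library leaves no residual degrees of freedom. The labels give no replicate numbers, so the library was the only block. With 1 UMI worth 26.6 CPM in WT and 59.5 CPM in ΔTE members, the depth limits the precision of genes with few UMIs.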
